A study of Mus musculus with 2 samples.

Results

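Resident macrophages marked by Ccl24 and Ednrb in mouse epididymal fat were examined, and their members were chosen by UMIs (unique molecular identifiers, each counting 1 captured transcript) of a few genes. A barcode with at least 200 genes was taken when it held at least 10 UMIs of C1qa, C1qb and C1qc together, 0 of Cd9, fewer than 10 of Dcn and fewer than 3 of Cdh5 and Cldn5. It also needed at least 3 UMIs of the lectin group Cd209f, Cd209d, Fcna and Folr2, and at least 3 of Timd4, Ccl24 and Ednrb. This gave 274 cells of 2174 in the whole series, with 177 of 1057 on low-fat diet (LFD) and 97 of 1117 on high-fat diet (HFD). The study profiled stromal vascular cells of epididymal adipose tissue from C57BL/6J male mice by droplet-based sequencing to describe the stroma of fat in obesity. There was 1 library per diet, and both diets were given for 24 wk from 6 wk of age. The labels give the strain as C57BL/6, do not say how many animals were pooled, and in their protocol text name the low-fat diet for both samples, so the diets rest on each sample's title and treatment entry. The diet comparison therefore has no replicate check: a difference between diets cannot be told apart from a difference between animals or libraries, and no test or p-value is given.

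The LFD library held 7356278 UMIs in 1113 barcodes and the HFD library 8412325 UMIs in 1144 barcodes, with 0 barcodes shared between them. Members had a median of 6474 UMIs and 2217 genes on LFD, and 6771 UMIs and 2303 genes on HFD. Their median mitochondrial share was 5.78% and 6.08%. Limits of 200 to 2500 genes and under 5% mitochondrial UMIs were applied as an alternative, since only 35 LFD and 10 HFD members meet them. Levels are in CPM, counts per 10⁶ UMIs, from the UMIs summed over the cells of a class. Ratios carry the exact conditional binomial 95% interval, levels the exact Poisson interval and shares the exact (Clopper-Pearson) binomial interval. All of them cover counting error only, since cells of 1 library are not replicates.

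Tissue-resident macrophages of fat lie along vessels and among adipocytes, where they clear dying cells, take up hyaluronan and haemoglobin complexes, and store or recycle iron. They are known for lectin and scavenger receptors, for the phosphatidylserine receptor Timd4 in long-lived cells, and for the eosinophil-attracting chemokine Ccl24. Obesity is known to add macrophages of monocyte origin that handle lipid around dying adipocytes.

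The label of high Timd4 went against the data, and the cells are therefore called Ccl24/Ednrb resident macrophages. Timd4 stood at 148 CPM on LFD and 60.3 CPM on HFD, and its UMIs were present in 76 of 177 LFD members and 29 of 97 HFD members. Its median was 0 UMIs in both libraries, and 23 and 3 cells held 3 or more. Ccl24 stood at 1095 CPM on LFD and 538 CPM on HFD, with a UMI in 98.9% (96.0 to 99.9%) of LFD members and 81.4% (72.3 to 88.6%) of HFD members. Ednrb, the type B endothelin receptor, stood at 779.9 CPM on LFD and 936 CPM on HFD, with a UMI in 85.9% (79.9 to 90.6%) and 94.8% (88.4 to 98.3%). All of Timd4, Ccl24 and Ednrb were seen in 70 LFD and 21 HFD members, and Ccl24 and Ednrb without Timd4 in 80 and 53. The members thus entered mostly through Ccl24 and Ednrb, and only 3 LFD and 1 HFD members had fewer than 3 UMIs of that pair. These genes chose the cells, so their levels are a description.

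Members near the threshold were few. At exactly 3 UMIs of Timd4, Ccl24 and Ednrb there were 11 LFD and 10 HFD members, and 5 cells in each library lay just outside at 2. A further 12 LFD and 8 HFD cells outside held 1 UMI of these genes, and 9 and 16 held 0. Most of the LFD cells outside thus held some of them. The median sum in members was 10 on LFD and 9 on HFD. For the lectins, 1 LFD and 0 HFD members stood at exactly 3 UMIs and 4 and 0 cells at 2, against medians of 35 and 42. A further 2 LFD and 5 HFD cells met every other condition but held a Cd9 UMI.

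Markers that the rule did not use identified the members as macrophages. Adgre1 (F4/80) stood at 458 CPM on LFD and 481 CPM on HFD, Csf1r, the receptor for the growth factor that keeps macrophages alive, at 1054 and 907 CPM, and the lysosomal protein Cd68 at 575 and 868 CPM. Fcgr1, the high-affinity IgG receptor, was low at 98.4 and 123 CPM, as was the efferocytosis kinase Mertk at 103 and 77.5 CPM. The hyaluronan receptor Lyve1, also outside the rule, was at 1089.6 and 1108 CPM. Under the limits above its log2 ratio of HFD over LFD went from 0.02 to 0.80 (0.41 to 1.18). Its UMIs were present in 86.4% and 93.8% of members, and in 77.3% and 78.7% after each cell was thinned to 2000 UMIs, which left out 5 LFD and 3 HFD members. In T and NK cells, with median depths of 2764.5 and 1946 UMIs, the share with a Lyve1 UMI was 1.14% and 0%, and in fibroblasts, at 8521 and 7987 UMIs, 4.70% and 2.64%. Folr2, a folate receptor of resident macrophages that the rule used, was seen in 98.9% and 100% of members at 1964 and 2117 CPM.

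Markers of other cell types differed widely in level. The rule itself limited Dcn, Cdh5 and Cldn5, so low fibroblast and endothelial levels are in part fixed by the choice of cells. Monocyte markers (9 and 7 of 14 detected) summed to 1699 and 1926 CPM, led by S100a6, with Chil3 and Cd300e at 0. Conventional dendritic cell markers (7 and 5 of 14 detected) summed to 499.5 and 474 CPM, led by Cd209a, with Flt3 and Xcr1 at 0. Red blood cell genes (4 and 5 of 6 detected) summed to 45.7 and 291 CPM, led by Hbb-bs. Of 11 T and NK cell markers measured, 6 were detected on LFD and 1 on HFD, with summed levels of 10.4 and 1.44 CPM, Cd4 and Gzma the most abundant, and Il7r, Cd8a, Klrb1c and Ncr1 at 0. B cell markers (2 and 1 of 6 detected) summed to 7.76 and 4.31 CPM, led by Cd79b, with Cd79a, Ms4a1 and Pax5 at 0. Mesothelial markers (4 and 1 of 7 detected) summed to 7.76 and 1.44 CPM, led by Upk3b, with Msln, Lrrn4 and Wt1 at 0. Endothelial markers (9 and 7 of 11 detected) summed to 48.3 and 53.1 CPM, led by Cd300lg, with Tie1 and Emcn at 0. Neutrophil and mast cell markers (3 and 2 of 9 detected) summed to 13.8 and 25.8 CPM, led by Csf3r, with S100a8, S100a9, Ly6g and Cpa3 at 0. Fibroblast markers (11 and 7 of 13 detected) summed to 204 and 167 CPM, led by Gsn, with Pi16 and Col6a2 at 0. Adipocyte markers (10 and 8 of 10 detected) summed to 451 and 362 CPM, led by Fabp4, a fatty acid binding protein that macrophages also make. Fabp4 UMIs were found in 70.1% and 77.3% of members and in 25% and 42.9% of T and NK cells. The part of these markers in the results was not tested.

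Members made up a smaller share of the HFD library. They were 16.7% (14.5 to 19.1%) of LFD cells and 8.68% (7.10 to 10.5%) of HFD cells. The log2 ratio of these shares, under the limits above, went from -0.95 to -2.07. Among macrophages defined by C1q, which were 230 on LFD and 321 on HFD, they fell from 77.0% (71.0 to 82.2%) to 30.2% (25.2 to 35.6%). The other resident macrophages, with the same lectins but fewer than 3 UMIs of Timd4, Ccl24 and Ednrb, were 11.3% (7.52 to 16.1%) and 9.03% (6.13 to 12.7%). The Cd9-positive macrophages went from 1.74% (0.476 to 4.39%) to 36.4% (31.2 to 42.0%), and the macrophages without Cd9 and without the lectins from 10% (6.45 to 14.6%) to 24.3% (19.7 to 29.4%). A share falls when other classes are captured in larger number, and fewer resident cells per depot and more of the others cannot be told apart in these data. Scrublet, run at an expected rate of 1%, marked 21 LFD and 26 HFD barcodes as doublets, of which 1 and 0 were members, and these were kept.

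The members also lay together when the rule's genes were set aside. Within each library, the 15 nearest neighbours of a cell were found among C1q macrophages thinned to 2000 UMIs, on 20 principal components of 1000 variable genes without the 14 genes of the rule. On LFD, 89.7% of the neighbours of members were members, where members were 79.6% of the cells. On HFD the share was 84.2% with a base of 30.1%. Members were 74.2% and 34.0% of the neighbours of other resident macrophages, 40% and 3.84% for macrophages without Cd9 and without the lectins, and 65% (4 cells) and 7.29% for Cd9-positive cells.

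Of the genes in the fixed lists, Retnla, Apoe and Ftl1 had the highest levels in members of both libraries, followed by Cd74 on LFD and Fth1 on HFD. Retnla (resistin-like alpha), which IL-4 induces in macrophages, was at 24434 CPM on LFD and 20056 CPM on HFD, and the cholesterol carrier Apoe at 12779 and 17677 CPM. The invariant chain Cd74 was at 8496 and 3522.5 CPM and the ferritin heavy chain Fth1 at 7122 and 8658 CPM. C1qa, the first complement subunit and a gene of the rule, stood at 5596 and 6910.1 CPM, the iron store Ftl1 at 10755 and 13409.6 CPM and the selenium carrier Sepp1 at 6652 and 7539 CPM. The platelet factor chemokine Pf4 stood at 4083 and 3006 CPM, the transglutaminase F13a1 at 2398 and 2597 CPM and the mannose receptor Mrc1 at 2098 and 2185 CPM. Among uptake receptors, the haemoglobin scavenger receptor Cd163 was at 879 and 627 CPM, Stab1 at 448 and 630.1 CPM and the fatty acid transporter Cd36 at 1254 and 754 CPM. Gas6, the bridge between phosphatidylserine and the Mertk family, was at 962 and 1138 CPM, while its receptor Axl was at 28.5 and 21.5 CPM. Haem oxygenase Hmox1 was at 471 and 448 CPM and the iron exporter Slc40a1 at 95.8 and 51.7 CPM. Of lipid-associated macrophage genes, Cd9 was 0 by the rule, Itgax was at 0, Spp1 had 1 UMI on LFD and 0 on HFD, and Gpnmb 0 and 5 UMIs. A level of 3 UMIs is 2.59 CPM on LFD and 4.31 CPM on HFD, and the exact upper limit of a count of 0 on HFD is 5.30 CPM. As these are 3′ tag counts, levels of different genes can be set side by side without a length scale.

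Between diets, the members on HFD had less of the MHC class II presentation genes, and more of the chemokine Ccl8, the ribonuclease Rnase2a, the stress cytokine Gdf15 and the lipid receptor Trem2. Among 29 resident macrophage markers tested, 1 was called higher (Ccl8) and 2 lower (Timd4 and Ccl24), with a median log2 ratio of 0.06. Of 4569 genes with at least 50 UMIs over both libraries, 46 were at least 2-fold higher on HFD with an interval that left out 1 (1.01%), and 94 were lower (2.06%). Of the 94, 3 are genes of the rule (Timd4, Ccl24 and Dcn), whose levels the choice of cells partly sets. The median log2 ratio of all tested genes was 0.01. When the cell with most UMIs of each gene was left out of each library, a check chosen after seeing the data, 37 of the 46 and 93 of the 94 were still called. With the 35 LFD and 10 HFD members within the limits above, 13 genes were higher and 23 lower.

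**Figure D1:**
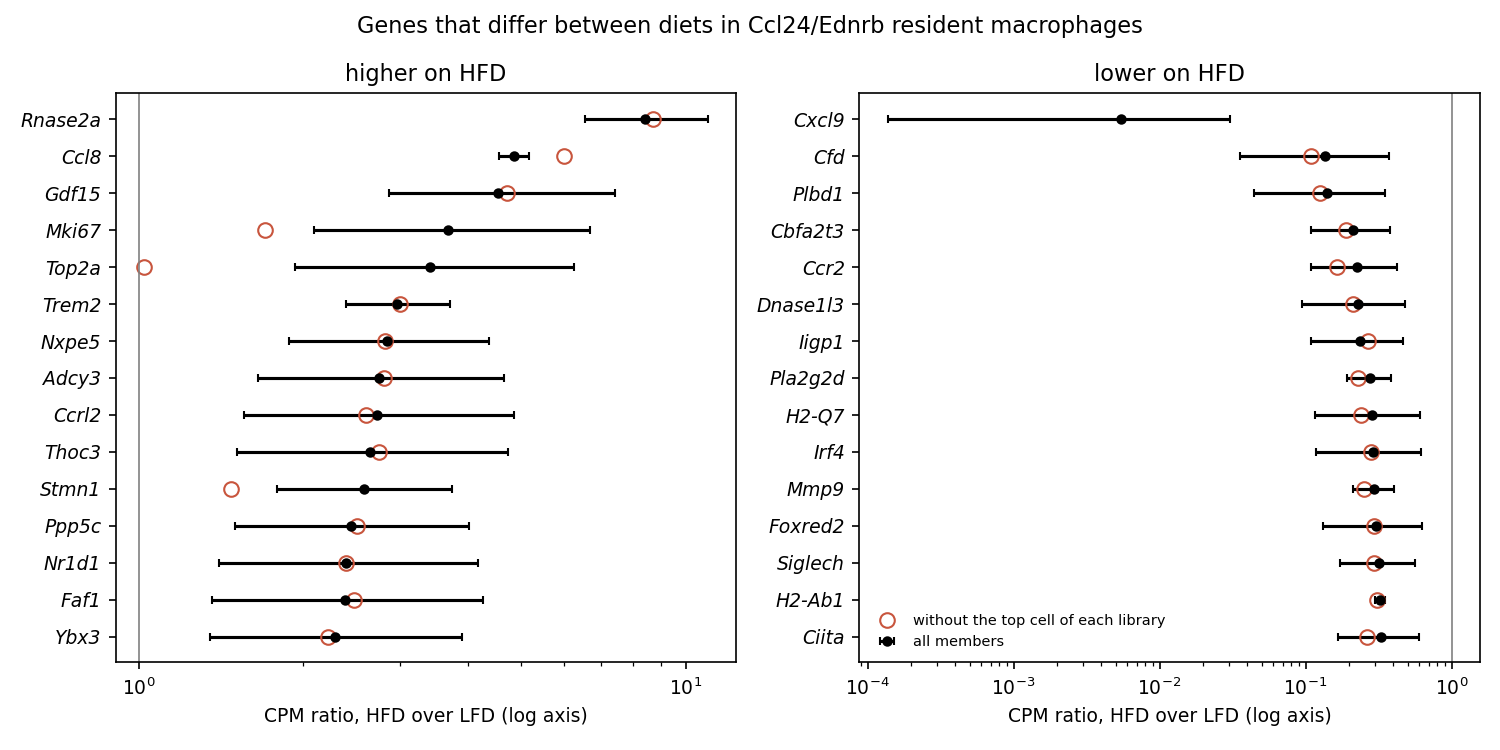
CPM ratios of HFD over LFD in Ccl24/Ednrb resident macrophages (177 LFD and 97 HFD cells, 1 library per diet) for the 15 highest and 15 lowest genes, on a log axis. Filled points with bars show all members with the exact 95% interval, and open circles the ratio without the top cell of each library, which is 0 for Cxcl9 and not drawn. Mki67, Top2a and Stmn1 are no longer called without their top cells, while Ccl8 moves from 4.86 to 6.00.

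Class II molecules carry peptides of engulfed protein to CD4 T cells, and their genes were lower together. Of 12 genes of the class II presentation list, 9 were tested, 7 were lower on HFD and 0 higher, with a median log2 ratio of -1.33 beside 0.01 for all genes. H2-Ab1, the beta chain of I-A (ENSMUSG00000073421, chr17:34257689-34269419, plus strand, GRCm38), stood at 3519 CPM on LFD and 1139.7 CPM on HFD, a ratio of 0.324 (0.300 to 0.350). Its partner H2-Aa was at 4227 and 1559 CPM, a ratio of 0.369 (0.345 to 0.394), and H2-Eb1 of I-E at 3518 and 1246 CPM, a ratio of 0.354 (0.329 to 0.381). Levels of all these chains were higher on LFD. The invariant chain Cd74, which guides them to the endosome, was at 8496 and 3523 CPM, a ratio of 0.415 (0.397 to 0.433). H2-DMa and H2-DMb1, which load the peptide, had ratios of 0.396 (0.317 to 0.491) and 0.414 (0.306 to 0.553). Ciita, the transactivator of class II genes, was at 56.9 and 18.7 CPM, from 66 and 13 UMIs, a ratio of 0.328 (0.166 to 0.600). Under the limits above, H2-Ab1 and H2-Eb1 had log2 ratios of -1.25 and -1.13, while H2-Aa (-0.98) and Cd74 (-0.93) fell short of 2-fold. Genes of the list that were not called included the protease Ctss at 749.7 and 804 CPM and the thiol reductase Ifi30 at 251 and 433.5 CPM, which serve the lysosome as well. The interferon-responsive regulator Irf1, outside this list, was at 181 and 70.3 CPM, a ratio of 0.388 (0.278 to 0.532).

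Single members spread widely in class II RNA. H2-Aa, H2-Ab1, H2-Eb1 and Cd74 together took a median of 1.73% of a cell's UMIs on LFD (quartiles 0.565 and 3.27%) and 0.316% on HFD (quartiles 0.0464 and 1.41%). The highest cells reached 6.12% and 4.59%, so the libraries overlapped over most of the range. 0 of 177 LFD members and 8 of 97 HFD members had no UMI of these genes. In other resident macrophages the medians were 3.60% and 3.16%, and in macrophages without Cd9 and without the lectins 3.57% and 3.96%. In Cd9-positive macrophages, with 4 cells on LFD and 117 on HFD, they were 2.63% and 2.08%, also lower on HFD. Members on HFD thus had the lowest median of these classes. H2-Aa ratios of HFD over LFD were 0.708 (0.651 to 0.770) in other resident macrophages and 1.21 (1.13 to 1.30) in those without Cd9 and without the lectins. The difference between classes was not tested. H2-Aa UMIs were seen in 92.7% and 69.1% of members and 5.48% and 3.30% of fibroblasts. In T and NK cells the share was 15.9% and 5.71%, at 1691 and 26.4 CPM, and some LFD cells of that gate carried antigen-presenting genes.

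Across members thinned to 2000 UMIs, the correlation of resident markers with class II was computed. Of 26 resident markers seen in at least 25% of thinned members of both libraries, 17 had a negative Pearson r with the class II sum in both libraries, and 2 were under -0.3 in both. Of the 26, 6 are genes of the rule, and of the 20 others 12 were negative in both and 1 under -0.3 in both. Of all 776 genes seen as often, a background added after the values of the markers were seen, 247 (31.8%) were negative in both and 5 under -0.3 in both. At a fixed total, UMIs of class II also take the place of others, and this part was not tested. The 2 markers were F13a1 (r = -0.44 over 172 LFD cells and -0.37 over 94 HFD cells) and the ficolin Fcna, a gene of the rule (-0.39 and -0.37). Lyve1 had r of -0.37 and -0.22. The rule genes Ednrb and Ccl24 had -0.33 and -0.07, and -0.07 and 0.22. Cells of a library share animals, handling and depth, and counts are sparse, so these values are descriptions.

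**Figure D2:**
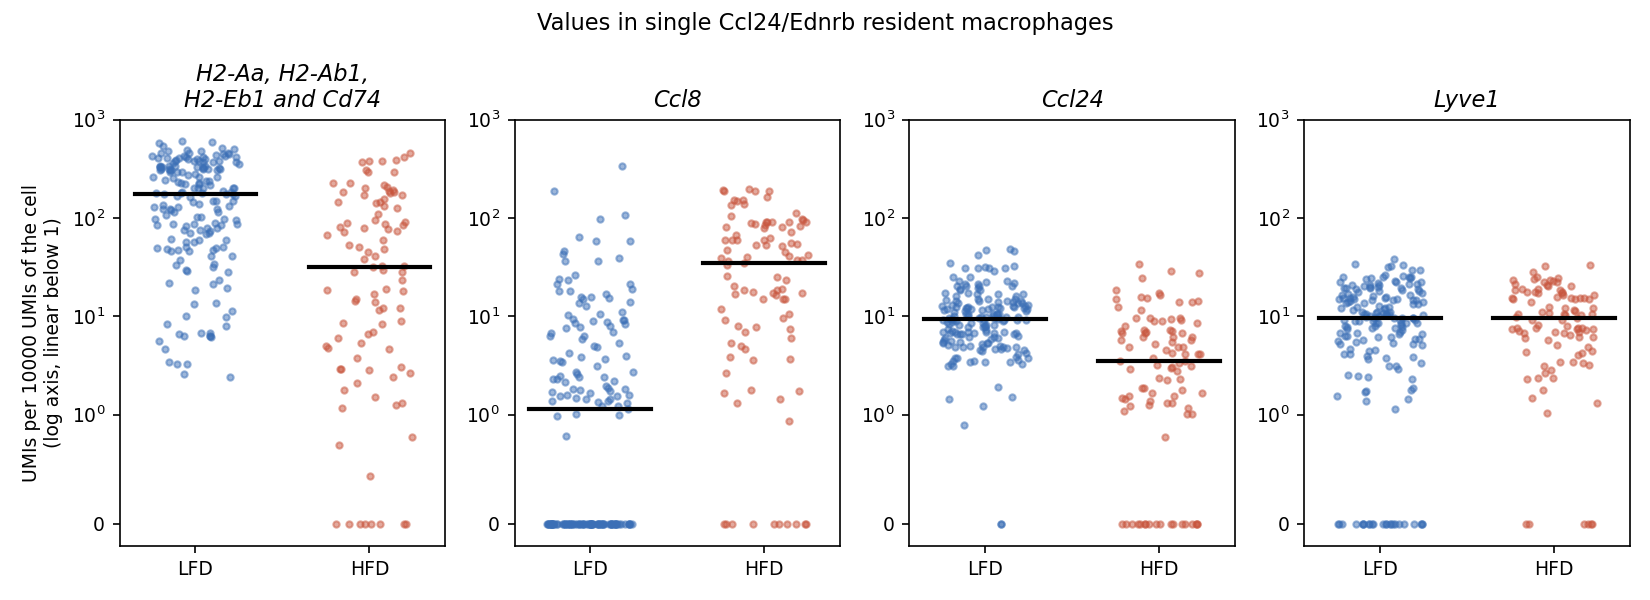
UMIs per 10000 UMIs of the cell in single Ccl24/Ednrb resident macrophages, on a log axis that is linear below 1, for class II genes, Ccl8, Ccl24 and Lyve1. Each point is 1 cell (177 LFD, 97 HFD) and bars are medians, which go from 1.14 to 34.7 for Ccl8, from 9.46 to 3.49 for Ccl24 and from 9.59 to 9.63 for Lyve1.

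As class II genes were lower on HFD, promoters are shown for H2-Aa and H2-Eb1, a chain each of I-A and I-E. Class II promoters are known for X and Y boxes, and the Y box holds an inverted CCAAT, bound by NF-Y. The letters TGATTGG, which contain that inverted CCAAT, were chosen after the diet values and some of these sequences had been seen, and were searched on both strands over 250 bases before the start. They were the only letters searched, and occurred in any promoter of 6 of 9 genes of the class II list with a promoter in the table, and in 7.23% of all 32851 RefSeq promoters of that length (GRCm38.p6). The first count is of genes and the second share is of single promoters, so they are not on the same unit. The 9 are not the 9 genes tested between diets: of the 7 called lower, 4 had a promoter in the table and 3 of them the letters (H2-Aa, H2-Eb1 and H2-DMb1), which H2-DMa lacks. The capitals mark these letters in the last 120 bases before the start, given 5′ to 3′. The window of H2-Aa is chr17:34287824-34287943 on the minus strand and that of H2-Eb1 chr17:34305747-34305866 on the plus strand. A match is a description of the letters and not a measured binding site.
H2-Aa: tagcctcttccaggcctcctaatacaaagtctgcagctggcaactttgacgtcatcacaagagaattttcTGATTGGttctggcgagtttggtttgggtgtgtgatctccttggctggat
H2-Eb1: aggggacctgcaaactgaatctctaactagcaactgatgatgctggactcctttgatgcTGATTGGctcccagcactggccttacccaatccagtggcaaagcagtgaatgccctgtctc

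Of the chemokine ligands tested, Ccl8 alone was called higher on HFD. Ccl8 (MCP-2, which attracts monocytes and lymphocytes; ENSMUSG00000009185, chr11:82115185-82116799, plus strand) rose from 1126 CPM on LFD to 5473 CPM on HFD, a ratio of 4.86 (4.56 to 5.18), and 6.00 (5.60 to 6.44) without its top cells. The share of members with a Ccl8 UMI was 52.5% and 89.7%, and 39.0% and 77.7% after thinning, beside 2.27% and 0% of T and NK cells and 2.61% and 14.5% of fibroblasts. Among other resident macrophages Ccl8 was at 437 and 2776 CPM, a ratio of 6.35 (4.79 to 8.55), and in macrophages without Cd9 and without the lectins at 45.2 and 59.3 CPM. In fibroblasts, with 16 UMIs on LFD and 98 on HFD, its ratio was 7.66 (4.49 to 13.9). Higher Ccl8 on HFD was thus seen in both resident classes and in fibroblasts. Under the limits above its log2 ratio in members went from 2.28 to 3.102, and those of Rnase2a and Gdf15, described below, from 3.08 and 2.18 to 4.74 and 3.16. Ccl24, a ligand of the eosinophil receptor CCR3 (ENSMUSG00000004814, chr5:135569937-135573049, minus strand), was lower at a ratio of 0.492 (0.437 to 0.552), though it had a part in choosing the cells. Cxcl12, which holds CXCR4-bearing cells in tissue, was at 167 and 76.1 CPM, a ratio of 0.455 (0.329 to 0.619). Cxcl9, a T cell attractant induced by interferon gamma, had 306 UMIs on LFD, 275 of them in 1 cell, and 1 on HFD, a ratio of 0.00544 (0.000137 to 0.0305) that rests on single cells, since the other LFD UMIs are all in a second cell. Cxcl9 was lower on HFD in other resident macrophages too, from 16 and 2 UMIs, a ratio of 0.0929 (0.0104 to 0.395). In macrophages without Cd9 and without the lectins its ratio was 0.0147 (0.00296 to 0.0448), and in fibroblasts 0.201 (0.115 to 0.333). In all, 16 of 21 chemokine ligands were tested, 1 was higher and 3 were lower, Ccl24 of the rule among them, and 12 were not called, beside 1.01% and 2.06% of all genes. Their median log2 ratio was -0.29. The CCR2 ligands Ccl2, Ccl7 and Ccl12 were at 1390 and 946 CPM, 786 and 578.5 CPM and 280.4 and 155 CPM, none of them called. Reads shared between Ccl8 and its close relatives are dropped by unique mapping, so these levels may be too low.

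Other genes higher on HFD were of several kinds. Rnase2a, of the eosinophil-associated ribonucleases, was at 63.0 and 531 CPM, a ratio of 8.43 (6.55 to 10.99), with a UMI in 10.2% and 38.1% of members and in 0 T and NK cells and 0 fibroblasts. In other resident macrophages Rnase2a had 1 UMI on LFD and 100 on HFD, and in those without Cd9 and without the lectins 0 and 23. It belongs to a family of near copies, so its reads may be incomplete. Gdf15, a stress-induced TGF-beta family hormone, was at 22.4 and 102 CPM, a ratio of 4.54 (2.86 to 7.42). Its ratio was 15.6 (2.51 to 645) in other resident macrophages and 3.42 (1.89 to 6.79) in those without Cd9 and without the lectins. Trem2, the lipid-sensing receptor of lipid-associated macrophages, was at 113 and 336 CPM, a ratio of 2.97 (2.39 to 3.71). Its UMIs were seen in 39.5% and 74.2% of members, 16.3% and 40.4% thinned, beside 4.44% and 2.31% of fibroblasts. Trem2 was higher on HFD in other resident macrophages too, with a ratio of 4.35 (2.45 to 8.31). In macrophages without Cd9 and without the lectins its ratio was 16.4 (5.51 to 80.5). In fibroblasts Trem2 was lower on HFD, with a ratio of 0.214 (0.106 to 0.399). The clock repressor Nr1d1 was at 21.6 and 51.7 CPM, a ratio of 2.40 (1.40 to 4.16). The adenylyl cyclase Adcy3 (2.75, interval 1.65 to 4.66), the chemerin-binding receptor Ccrl2 (2.72, interval 1.56 to 4.86), Nxpe5 (2.85, interval 1.88 to 4.37) and the mRNA export factor Thoc3 (2.65, interval 1.51 to 4.74) were also higher. The phosphatase Ppp5c (2.44, interval 1.5 to 4.02), Faf1 (2.39, interval 1.36 to 4.26) and the cold shock protein Ybx3 (2.28, interval 1.35 to 3.89) closed the list, each from fewer than 50 UMIs in either library.

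Proliferation genes were called on the strength of 1 cell per library. Mki67 had 19 UMIs on LFD, 16 in 1 cell, and 42 on HFD, 39 in 1 cell. Without these cells its ratio went from 3.68 (2.09 to 6.70) to 1.70 (0.228 to 12.7), that of the topoisomerase Top2a from 3.42 (1.93 to 6.26) to 1.02 (0.159 to 5.25), and that of the tubulin regulator Stmn1 from 2.58 (1.79 to 3.74) to 1.47 (0.753 to 2.85). Members with at least 5 UMIs of Mki67 and Top2a numbered 1 of 177 on LFD and 1 of 97 on HFD.

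Genes lower on HFD included secreted enzymes and regulators. Mmp9, a gelatinase that cuts basement membrane collagen, was at 224 and 66.0 CPM, a ratio of 0.294 (0.210 to 0.404), with a UMI in 53.1% and 22.7% of members and 10.2% and 11.4% of T and NK cells. Pla2g2d, a secreted phospholipase of resident phagocytes, was at 213 and 58.9 CPM, a ratio of 0.276 (0.193 to 0.386), with a UMI in 57.1% and 18.6% of members and none in T and NK cells. Both were lower in other resident macrophages as well, with ratios of 0.0222 (0.00263 to 0.0833) and 0.117 (0.0222 to 0.398). Under the limits above, Pla2g2d changed direction to a log2 ratio of 0.48 (-0.82 to 1.65), and Mmp9 at -0.56 (-1.64 to 0.38) was no longer called. Dnase1l3, which digests the chromatin of dying cells, was at 50.04 and 11.5 CPM, a ratio of 0.229 (0.0946 to 0.483), and the phospholipase-like Plbd1 at 50.9 and 7.18 CPM, a ratio of 0.141 (0.0442 to 0.348). Among regulators, the corepressor Cbfa2t3 was at 88.0 and 18.7 CPM (0.212 (0.109 to 0.379); log2 -0.28 and not called under the limits) and the transcription factor Irf4, which acts in alternative activation, at 39.7 and 11.5 CPM (0.289, interval 0.118 to 0.619). The monocyte chemokine receptor Ccr2 was at 69.9 and 15.8 CPM (0.226, interval 0.109 to 0.426), a level exceeded in T and NK cells at 425 and 343 CPM. The sialic acid lectin Siglech (0.320, interval 0.171 to 0.561), the flavoprotein Foxred2 (0.306, interval 0.132 to 0.629) and the class I gene H2-Q7 (0.283, interval 0.116 to 0.605), whose sequence is shared with close relatives, were lower too. Iigp1, an interferon-induced GTPase, was at 60.4 and 14.4 CPM (0.238, interval 0.109 to 0.464), with 20 of 70 LFD UMIs in 1 cell. It was lower in other resident macrophages too, with a ratio of 0.0323 (0.0038 to 0.123). In macrophages without Cd9 and without the lectins its ratio was 0.0182 (0.000438 to 0.115), and in fibroblasts 0.254 (0.215 to 0.299). T and NK cells held 3 Iigp1 UMIs in each library. Cfd, the adipocyte protease adipsin, was at 42.3 and 5.74 CPM (0.136, interval 0.0356 to 0.370), and in fibroblasts at 9.68 and 0.378 CPM. How far free RNA made the Cfd value was not tested.

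Other gene groups showed small or partial differences, read against the 1.01% and 2.06% of all genes and their median log2 ratio of 0.01. Of 29 resident macrophage markers tested, 1 was higher (Ccl8) and 2 were lower (Timd4 and Ccl24, both in the rule), with a median of 0.06. Of 17 scavenger receptors and lectins, 0 were called either way and the median was 0.06. Neither were any of 17 haem and iron genes (median -0.10) or 12 complement genes (median 0.09). Of 14 interferon-induced genes, 3 were lower, namely Irf1, Rtp4 and Gbp2, and 0 higher, with a median of -0.32. Gbp2, a guanylate-binding protein, was at 101 and 37.3 CPM, a ratio of 0.370 (0.232 to 0.569). Of 13 alternative activation genes, 3 were lower, namely Ccl24 (a gene of the rule), Irf4 and the zinc finger factor Egr2 (0.472, interval 0.349 to 0.630), with a median of -0.30, and Retnla had a ratio of 0.821 (0.804 to 0.838), which turned to a log2 ratio of 0.17 (0.10 to 0.25) under the limits. Of 17 lipid-associated macrophage genes, Trem2 alone was called, 14 had ratios above 1 and the median was 0.58.

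Lysosome and respiratory chain genes lay slightly above 1 for the most part. Of 33 lysosomal genes, 26 were above 1 and the median log2 ratio was 0.23, with the protease Ctsd at 848 and 1536 CPM (1.81, interval 1.66 to 1.98). Of 20 nuclear genes of oxidative phosphorylation, 18 were above 1, 0 were called and the median was 0.38. Immediate early genes, which tissue dissociation also induces, went the other way, as 4 of 30 were above 1, Egr2 was the gene called and the median was -0.43. Fos stood at 2225 and 1652 CPM and Junb at 2762 and 2180 CPM. The part of handling in the diet differences was not tested. Glycolysis (12 tested, median 0.22), cholesterol and lipid handling (14, 0.04), lineage transcription factors (19, -0.25) and senescence genes (9, -0.14) had no called gene. The cell cycle inhibitor Cdkn1a was at 361 and 266 CPM. The haemoglobin genes Hbb-bs and Hba-a1, which come from red blood cells, were higher on HFD in members, with Hbb-bs at 17.2 and 168 CPM, and at 13.4 and 119 CPM in T and NK cells but 128 and 29.9 CPM in fibroblasts. Dcn, a gene of the rule, and Serpinf1 of fibroblasts were lower, at 34.5 and 17.2 CPM and 40.5 and 20.1 CPM, and their part in other results was not tested.

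Set beside the other resident macrophages of the same library, the members had more Lyve1, lectins of the Cd209 family and complement C4b, and less class II, Cd52 and cyclin D1. The 2 classes are split by the sum of Timd4, Ccl24 and Ednrb, with 26 and 29 cells on the low side. Of 2415 genes with at least 50 UMIs in each library, 24 were at least 2-fold higher in members in both libraries with intervals that left out 1 (0.994%), 5 of them genes of the rule, and 12 were lower (0.497%). Median log2 ratios over all of them were 0.03 on LFD and 0.02 on HFD. Median depths were 5235 and 5679 UMIs in the other residents, below those of members, and a sum of UMIs is harder to reach in a shallow cell. Where the rule was applied to cells thinned to 4000 UMIs, Lyve1 was at log2 ratios of 1.41 and 0.76 in place of 2.01 and 2.34. Against a sum of at least 5 it was at 1.48 and 1.45. Under the limits above, with 4 and 7 other residents left, 8 genes were higher and 0 lower.

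Lyve1 was at 1089.6 against 270.3 CPM on LFD and 1108 against 219 CPM on HFD, with ratios of 4.03 (2.87 to 5.85) and 5.07 (3.65 to 7.26). The lectin Cd209b, which binds microbial sugars, was at 416 against 167 CPM on LFD and 386 against 76.8 CPM on HFD, with ratios of 2.49 (1.61 to 4.06) and 5.03 (2.89 to 9.57), and Cd209a had ratios of 2.44 (1.38 to 4.78) and 3.05 (1.80 to 5.55). Near copies in the Cd209 family could share reads, which unique mapping drops. C4b, the fourth complement component, was at 693 against 207 CPM on LFD and 1065 against 419 CPM on HFD, with ratios of 3.35 (2.27 to 5.16) and 2.54 (1.99 to 3.29). Ltc4s, the synthase of leukotriene C4, was at 522 against 207 CPM on LFD and 599 against 183 CPM on HFD, with ratios of 2.53 (1.71 to 3.90) and 3.27 (2.27 to 4.87). These genes were named because they were called higher in both libraries. With the rule on thinned cells, Cd209b on LFD (0.77), Cd209a on both (0.38 and 0.97), and Lyve1 (0.76) and Ltc4s (0.70) on HFD had log2 ratios short of 2-fold. At a sum of at least 5, so had Cd209b (0.94), Cd209a (0.75) and C4b (0.99) on HFD and Tbc1d4 on LFD (0.82), and with per-cell means C4b (0.85) and Ltc4s (0.68) on LFD. Under the limits Cd209a and C4b on LFD were at 0.39 and 0.70, Ltc4s on HFD at 0.99, Tbc1d4 on LFD at 0.33, and Colec12 turned to -0.96 on LFD. Among genes with few UMIs in the small class, the scavenger collectin Colec12 had ratios of 2.71 (1.03 to 10.2) and 4.25 (1.59 to 16.0) and the angiotensin-cleaving peptidase Enpep 10.1 (1.77 to 403) and 3.40 (1.5 to 9.54). The Rab regulator Tbc1d4 had ratios of 3.80 (1.01 to 32.0) and 3.21 (1.31 to 10.2), Ms4a8a 12.05 (2.12 to 480.1) and 2.92 (1.36 to 7.48) and Mfsd6 10.6 (1.86 to 424) and 2.87 (1.16 to 9.16). The NF-kappaB kinase Ikbkb had ratios of 3.15 (1.04 to 15.6) and 2.63 (1.06 to 8.41) and the antiviral helicase Ddx60 6.29 (1.70 to 52.6) and 2.53 (1.02 to 8.11).

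On the lower side, class II genes led the lists by number, with 5 of 8 tested lower in members in both libraries. Their median log2 ratios were -1.05 on LFD and -1.84 on HFD. H2-Aa was at 4227 against 9023 CPM on LFD and 1559 against 6389.7 CPM on HFD, with ratios of 0.468 (0.439 to 0.5001) and 0.244 (0.224 to 0.266), and H2-Ab1 and H2-Eb1 had ratios of 0.475 and 0.209 and 0.415 and 0.244. Log2 ratios of H2-Aa on LFD were -0.81 under the limits, -0.98 at a sum of at least 5 and -0.91 with per-cell means, all short of 2-fold, as was H2-Eb1 on LFD under the limits at -0.84. On HFD, H2-Aa went from -2.04 to -1.16 under the limits and -1.42 with the rule on thinned cells, and H2-Eb1 from -2.04 to -1.35 and -1.41. H2-DMa and H2-DMb1 had ratios of 0.493 and 0.365 and 0.415 and 0.167. Cd52, a small surface glycoprotein of leukocytes, was at 112 against 342 CPM on LFD and 37.3 against 272 CPM on HFD, and the pore-forming Mpeg1 at 69.0 against 207 CPM on LFD and 57.4 against 230.3 CPM on HFD. With per-cell means H2-DMb1 on LFD was at -0.85. Under the limits, Mpeg1 on LFD was at -0.13, and H2-DMb1 and Cd52 changed direction on LFD (log2 0.14 and 0.82) as did Mpeg1 on HFD (0.44). Ccnd1, the G1 cyclin D1, was at 76.8 against 286 CPM on LFD and 74.6 against 254 CPM on HFD, with ratios of 0.268 (0.180 to 0.407) and 0.294 (0.192 to 0.451). The survival gene Bcl2a1b (0.338 and 0.232), the lectin Clec4b1 (0.413 and 0.210), the chemokine Cxcl16 (0.492 and 0.473) and the ubiquitin ligase Neurl3 (0.475 and 0.494) were lower as well. Lists other than class II and the lectins held at most 3 called genes, and 5 of 14 scavenger receptors and lectins outside the rule were higher.

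Against Cd9-positive macrophages, members had more Ccl8, Cd209b, C4b and Gas6, and less Fn1, Lyz1, Lgals3 and Ccr2. This comparison rests on 4 Cd9-positive cells on LFD beside 117 on HFD, so the LFD intervals are wide. Of these cells, 2 on LFD and 5 on HFD met every condition of the members but for a Cd9 UMI. Of 3252 genes tested, 112 were higher in members in both libraries (3.44%), 8 of them genes of the rule, and 47 were lower (1.45%), with all-gene medians of -0.04 on LFD and 0.04 on HFD. Ccl8 was higher in members on LFD, with an interval from 14.2-fold upward, as the 4 cells had 0 UMIs. On HFD it was 52.4-fold (44.8 to 61.6) higher. C4b was at 693 against 107 CPM on LFD and 1065 against 52.2 CPM on HFD, with ratios of 6.45 (2.75 to 19.9) and 20.4 (16.2 to 25.9), and Gas6 at 962 against 193 CPM on LFD and 1138 against 97.6 CPM on HFD, with ratios of 4.97 (2.61 to 10.9) and 11.7 (9.81 to 14.0). The leukotriene synthase Ltc4s had ratios of 12.1 (3.35 to 100.5) and 12.7 (9.90 to 16.4) and Cd209b 9.67 (2.66 to 80.1) and 17.0 (12.01 to 24.9). The ribonuclease Rnase4 had ratios of 5.41 and 20.4, the heparan sulfate editor Sulf2 7.23 and 6.76, the NAD hydrolase Cd38 6.18 and 12.4 and Pla2g2d 9.92 and 5.84. Cmah, which makes N-glycolylneuraminic acid, had 7.51 and 9.27, the exchange factor Arhgef3 5.70 and 6.84 and Chp2 5.64 and 7.67. Of 21 resident markers outside the rule, 17 were higher in members and 0 lower, though these were chosen as markers of resident cells.

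Members were low in Fn1 (fibronectin), with 15 UMIs on LFD and 0 on HFD, or 12.9 against 1633 CPM on LFD and 0 against 478 CPM on HFD. With 0 UMIs on HFD, the Fn1 ratio was 0 there with an upper limit of 0.0111. Lgals3 (galectin-3), a mark of lipid-laden macrophages, was at 418 against 1698 CPM on LFD and 775 against 9325 CPM on HFD, with ratios of 0.246 (0.194 to 0.316) and 0.0831 (0.0761 to 0.0906). The lysozyme Lyz1, which shares sequence with its neighbour Lyz2, was at 31.1 against 3890.1 CPM on LFD and 2.87 against 178 CPM on HFD, and the growth factor Areg at 3.45 against 1247 CPM on LFD and 2.87 against 36.5 CPM on HFD. Ccr2 was at 69.9 against 344 CPM on LFD and 15.8 against 89.4 CPM on HFD, Cd52 at 112 against 709 CPM on LFD and 37.3 against 928 CPM on HFD and Mpeg1 had ratios of 0.229 and 0.175. The actin regulator Tmsb10 (0.109 and 0.120), S100a11 (0.180 and 0.252), the muscle-type adenylosuccinate synthase Adssl1 (0.216 and 0.245), and the death genes Bcl2l11 (0.247 and 0.246) and Siva1 (0.216 and 0.285) completed the named set. On LFD, all UMIs of Fn1, Lyz1, Areg, Tmsb10, Ccr2, Adssl1 and Bcl2l11 in Cd9-positive cells came from 1 of the 4 cells for each gene, so these LFD values rest on a single cell. Of 7 cell cycle genes tested, 3 were lower in members in both libraries, namely Mki67, Stmn1 and H2afz, with UMIs in 1, 3 and 4 of those cells.

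Most genes were called against the macrophages without Cd9 and without the lectins, 23 cells on LFD and 78 on HFD. Members had far more Lyve1, Cd209 lectins, Ccl8 and complement C4b, and far less fibronectin, interleukin 1 beta, Ccr2 and Lpl. Of 2996 genes tested, 166 were higher in members in both libraries (5.54%), 7 of them genes of the rule, and 101 were lower (3.37%), beside all-gene medians of -0.08 and -0.04. Lyve1 was at 1089.6 against 19.4 CPM on LFD and 1108 against 4.24 CPM on HFD, the others holding 3 and 2 UMIs, with ratios of 56.3 (19.2 to 273) and 261 (72.1 to 2163). Cd209b and Cd209a had ratios of 64.4 (11.5 to 2549) and 182 (32.4 to 7223) and 12.03 (4.07 to 58.7) and 127 (22.6 to 5056). Cd209g was at 16.8 (7.68 to 45.9) on LFD. On HFD, where the others held 0 UMIs, the Cd209g interval ran from 74.4-fold upward. C4b was at 693 against 51.6 CPM on LFD and 1065 against 8.48 CPM on HFD, with ratios of 13.4 (6.77 to 31.2) and 126 (48.9 to 462). Gas6 was at 962 against 90.4 CPM on LFD and 1138 against 99.6 CPM on HFD, and Ccl8 had ratios of 24.9 (12.1 to 62.1) and 92.2 (63.7 to 139). The focal adhesion protein Tns1 (10.2 and 12.4), the calcium-binding Rcn3 (20.9 and 17.1) and the Ras exchange factor Rasgrp3 (14.8 and 10.3) were higher too. Ddx60 had a ratio of 15.5 (2.73 to 617) on LFD. On HFD, where the others held 0 UMIs, its interval ran from 9.21-fold upward.

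Of 5 monocyte markers tested 3 were lower in members, and of 14 cytokines and chemokine receptors 3, beside 3.37% of all genes. Median log2 ratios on LFD and HFD were -4.48 and -5.52 for the former and -0.18 and -0.29 for the latter. Il1b, the fever cytokine, was at 6.04 against 529 CPM on LFD and 7.18 against 788 CPM on HFD, with ratios of 0.0114 (0.00445 to 0.0246) and 0.00910 (0.00294 to 0.0214). The NF-kappaB restraining factor Tnip3 was at 3.45 against 510.0 CPM on LFD and 0 against 551 CPM on HFD. Its HFD ratio of 0 had an upper limit of 0.00968. Fn1 was at 12.9 against 3202 CPM on LFD and 0 against 1113 CPM on HFD and Lyz1 at 31.1 against 4429 CPM on LFD and 2.87 against 316 CPM on HFD. Ccr2 was at 69.9 against 1569 CPM on LFD and 15.8 against 759 CPM on HFD, with ratios of 0.0445 (0.0342 to 0.0575) and 0.0208 (0.0103 to 0.0377). Lpl, which frees fatty acids from lipoproteins, was at 291 against 2214 CPM on LFD and 149 against 1471 CPM on HFD, with ratios of 0.131 (0.113 to 0.153) and 0.102 (0.0818 to 0.125). These genes were named because they were among the lowest called in both libraries, so their direction was fixed by that choice. The ribonuclease Ear2 was at 0.0135 (0.00654 to 0.0251) on LFD and at 0 on HFD, with an upper limit of 0.0176. Ezr (0.0795 and 0.0529), the adhesion molecule Alcam (0.0835 and 0.0968), Cd52 (0.0993 and 0.0375), the G protein regulator Rgs1 (0.0863 and 0.0993) and the repressor Id2 (0.106 and 0.133) were lower. Of 8 class II genes, 2 were lower in members in both libraries, with median log2 ratios of -0.71 on LFD and -2.43 on HFD. Growth factors were higher for 7 of 11 tested, and haem and iron genes for 5 of 14, beside 5.54% of all genes. Their median log2 ratios on LFD and HFD were 1.60 and 1.74, and 0.40 and 0.16.

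**Figure D3:**
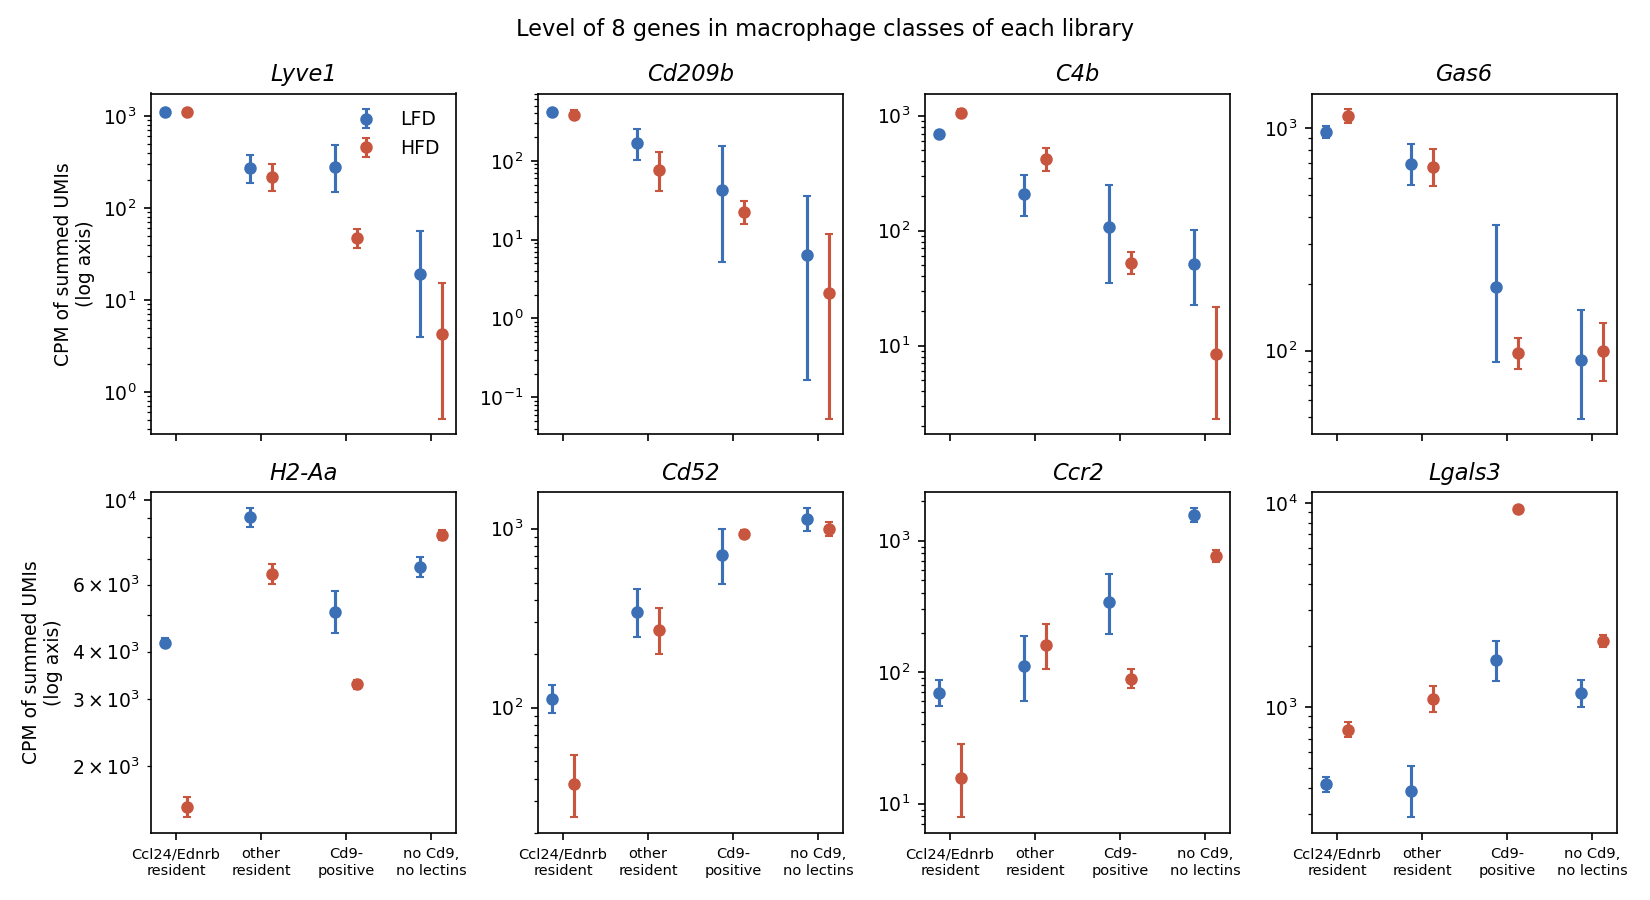
Level of 8 genes (CPM of summed UMIs, log axis, exact Poisson 95% interval) in Ccl24/Ednrb resident macrophages, other resident macrophages, Cd9-positive macrophages and macrophages without Cd9 and without the lectins, 1 library per diet. Members are highest for Lyve1, Cd209b, C4b and Gas6 and lowest for Cd52 and Ccr2 in each library, and the Cd9-positive class has 4 cells on LFD.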

How the data were processed

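The authors deposited count tables of raw UMIs, from Cell Ranger (file header 3.0.2) on mm10 from 10x Chromium libraries. The counts hold barcodes beyond the limits on genes and mitochondrial UMIs that the methods give. Barcodes with at least 200 genes were used and classes were set by UMI thresholds. T and NK cells (at least 3 UMIs of Cd3d, Cd3e, Cd3g and Nkg7) and fibroblasts (at least 10 of Dcn) gave the background. Members and lists were chosen with earlier results of these data known. Of 27998 gene IDs, 27645 were matched in GENCODE M21 (GRCm38). Genes needed at least 50 UMIs and were called at 2-fold with a 95% interval that leaves out 1, in both libraries for comparisons within libraries. Log2 medians had 0.5 UMIs added. Named genes were the 5 markers, the list genes, the 15 highest and 15 lowest called between diets, and the 12 highest and 12 lowest called in each other comparison by the smaller of their changes. Mitochondrial, ribosomal, haemoglobin, Y-linked, Xist and unnamed model genes were left out, as were genes of the rule in the class comparisons. The code was tested on simulated data. Python 3.11.15, numpy 2.4.6, scipy 1.17.1 and scanpy 1.11.5 were used.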

Additional observations from a re-analysis of the deposited data

Results flagged for a closer look

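For 4 genes the HFD over LFD ratio passed 2-fold in opposite directions in Ccl24/Ednrb resident macrophages and in macrophages without Cd9 and without the lectins. No share over all genes compared is given beside this count, so it is a list and not a result. Mki67 was at 3.68 (2.09 to 6.70) and 0.290 (0.182 to 0.460), and Stmn1 at 2.58 (1.79 to 3.74) and 0.283 (0.179 to 0.448), with the values of members resting on 1 cell per library. The leukocyte gene Lst1 was at 0.450 (0.313 to 0.634) and 2.26 (1.12 to 5.18), and the TNF family ligand Tnfsf9 at 0.433 (0.216 to 0.808) and 2.99 (1.501 to 6.77), from 50 UMIs on LFD and 13 on HFD in members. In macrophages without Cd9 and without the lectins, Lst1 had only 9 UMIs on LFD and 62 on HFD. Tnfsf9 had 9 and 82 there. The difference between classes was not tested.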

How the results depend on the processing

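No paired analysis was possible because each diet has 1 library. Limits of 200 to 2500 genes and under 5% mitochondrial UMIs left 35 LFD and 10 HFD members. The log2 ratio of member shares then went from -0.95 to -2.07, calls between diets from 46 higher and 94 lower to 13 and 23, and calls against other residents from 24 and 12 to 8 and 0. Under them Pla2g2d turned to 0.48 (log2, HFD over LFD) and, against other residents, Colec12 to -0.96, H2-DMb1 to 0.14 and Cd52 to 0.82 on LFD and Mpeg1 to 0.44 on HFD. With the rule on thinned cells Mki67 turned to -2.31. With at least 20 UMIs, calls between diets were 142 and 215, and those lower in members 90 against Cd9-positive cells and 182 against cells without Cd9 and lectins. At 1.5-fold they were 233 and 299 between diets, 52 and 27 against other residents, 131 lower against Cd9-positive cells, and 258 and 219 against cells without Cd9 and lectins. With a sum of at least 5, 10 genes were higher than in other residents. With the mean of per-cell CPM, 15 were higher than in other residents and 71 than in Cd9-positive cells. The other shares, counts and neighbour values stayed within 1.5 times or the interval. Of 345 single-gene values, 269 lay within the interval, 70 moved beyond it and 6, all of called genes, changed sign. Retnla, not called, also changed sign under the limits, to 0.17, and Lyve1 did so within its interval on thinned cells. Leaving out the top cell of each gene was added after seeing the data. The cause was not tested.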
